A study of Mus musculus with 9 samples.

Results

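The genes on either side of Erbb2 on mouse chromosome 11 were examined tumour by tumour. The 10 neighbours were Stac2, Fbxl20, Med1, Cdk12, Ppp1r1b, Stard3, Pgap3, Mien1, Grb7 and Ormdl3, 10 of the 18484 genes listed for these tumours. They were chosen for their place beside Erbb2 and for their levels in the high-amplified tumours, so their differences between high-amplified and not/low-amplified tumours are described here without p-values, and where a fit's calls are counted among them nothing is read from the count. All 10 passed the filter on counts that 14007 genes passed (10 counts or more in 3 or more of the 8 tumours that are not sarcoma).

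Erbb2 encodes a receptor tyrosine kinase that signals as a dimer with other ErbB receptors. When a stretch of a chromosome is copied many times in a tumour, the genes that lie next to the selected gene are copied with it, and their transcripts may or may not rise with the extra copies. In human HER2-positive breast cancer the amplified stretch often holds counterparts of these genes, among them STARD3, PGAP3, MIEN1 and GRB7. The RNA-seq libraries described here measured transcripts and not DNA copies. From tumour DNA, the paper reports exome gains that took in Mien1 and Grb7 along with Erbb2 in some of its adenocarcinomas. By droplet digital PCR it reports gains of Grb7 and Mien1 much like those of Erbb2 and Neu.

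RNA had been taken from 9 snap-frozen mammary tumours of BlgCre-NeuKI mice on a mixed FVB and C57Bl6 background, with 1 library per tumour. In these mice an activated rat form of the receptor, Neu (NeuNT), stands at the endogenous Erbb2 locus behind a floxed STOP cassette, and the Beta-lactoglobulin promoter drives the Cre that removes it, mainly in luminal ER- cells. The 5 high-amplified tumours were adenocarcinomas of no special type, of which MS1163.1, MS1163.2 and MS1213.1 arose in virgin animals and MS1155.3 and MS1218.2 in parous ones. The paper assigned amplification status by quantitative PCR of tumour DNA. For MS1218.2 it reports that exome copy number and droplet digital PCR disagreed with that result. For MS1213.1 droplet digital PCR disagreed, while exome copy number did not. MS1218.2 was also the exception to the high tumour purity that the paper estimated from RNA. The 3 not/low-amplified tumours all came from parous animals: MS1210.1 and MS1349.1 were adenosquamous carcinomas and MS1166.1 was an adenocarcinoma of no special type. The remaining tumour, MS1156.1, was a sarcoma from a parous animal and was kept apart from both groups. All 9 tumours arose in carriers of the transgene and the knock-in allele, and no normal gland was compared. The labels number MS1163.1 and MS1163.2 as tumours of 1 mouse, although the series describes its tumours as coming from separate mice, so they may not be independent. Ages of the animals are not used here.

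The neighbours fill 551 kb of chromosome 11 (GRCm38, 98036623 to 98587368). Pgap3 lies 12.0 kb before Erbb2 (98412470 to 98437716, plus strand), Stard3 31.4 kb and Ppp1r1b 54.7 kb before it. Cdk12, Med1, Fbxl20 and Stac2 follow at 134, 219, 262 and 359 kb. On the other side Mien1 lies tail to tail with Erbb2 and shares its last 9 bases, on the opposite strand. Grb7 starts 8.68 kb and Ormdl3 lies 144 kb beyond Erbb2. Ppp1r1b, Stard3, Cdk12 and Grb7 are read in the same direction as Erbb2, and the other neighbours in the opposite one.

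The promoters of 4 neighbours are shown because the results turn on these genes: Stard3 and Pgap3, which were high in the same 3 tumours, Mien1, which was raised in all 5 high-amplified tumours, and Ormdl3, which was raised in 4 of them. Each is the 250 bases before the start of transcription from RefSeq (GRCm38.p6), written 5′ to 3′ on the strand of the gene. Capitals mark the GC box GGGCGG, the CCAAT box and the ETS core CCGGAA, on either strand.
Stard3, chr11:98358118-98358367, plus strand: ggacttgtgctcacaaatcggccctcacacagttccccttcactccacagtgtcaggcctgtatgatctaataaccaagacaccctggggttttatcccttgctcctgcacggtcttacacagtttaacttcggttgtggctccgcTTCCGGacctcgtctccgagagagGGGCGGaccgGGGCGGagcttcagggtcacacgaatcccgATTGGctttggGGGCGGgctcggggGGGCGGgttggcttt
Pgap3, chr11:98400491-98400740, minus strand: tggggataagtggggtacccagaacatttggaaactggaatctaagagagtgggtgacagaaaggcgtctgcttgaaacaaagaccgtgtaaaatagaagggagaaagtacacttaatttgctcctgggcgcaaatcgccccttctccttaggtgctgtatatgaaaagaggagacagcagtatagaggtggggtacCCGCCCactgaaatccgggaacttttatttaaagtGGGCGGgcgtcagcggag
Mien1, chr11:98438989-98439238, minus strand: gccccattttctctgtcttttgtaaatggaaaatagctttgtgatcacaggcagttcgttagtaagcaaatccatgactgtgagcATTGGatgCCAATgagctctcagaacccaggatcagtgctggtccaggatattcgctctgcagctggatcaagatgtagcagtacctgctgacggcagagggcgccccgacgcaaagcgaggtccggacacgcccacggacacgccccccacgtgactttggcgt
Ormdl3, chr11:98587246-98587495, minus strand: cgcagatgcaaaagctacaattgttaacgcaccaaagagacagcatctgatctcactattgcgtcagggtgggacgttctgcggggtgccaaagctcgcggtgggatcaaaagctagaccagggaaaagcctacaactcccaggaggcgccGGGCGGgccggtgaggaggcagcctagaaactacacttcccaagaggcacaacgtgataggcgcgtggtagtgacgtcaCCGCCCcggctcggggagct

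No motif searched was found in all 4 promoters. Stard3 held 4 GC boxes, 1 CCAAT box and 1 ETS core, Pgap3 and Ormdl3 held 2 GC boxes each, and Mien1 held 2 CCAAT boxes and no GC box. None of the 4 held TATAAA. Of all 32851 promoters of this length, 32.7% held a GC box, 33.8% a CCAAT box, 12.0% an ETS core and 12.4% TATAAA. The 4 windows held 15, 9, 13 and 18 CG dinucleotides, in the order printed, against a median of 6 over all promoters. Promoters were found for 7 of the 10 neighbours, all but Stac2, Ppp1r1b and Grb7.

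The libraries held 12501225 to 23912429 counted reads, and all values below are counts scaled to library size (normalized counts), the unit of every level given unless it is called a count. MS1218.2 stood apart from the other high-amplified tumours in its content of non-epithelial RNA. Its summed level of 6 mesenchymal markers was 408808 against 45808 to 117076 in the other 4, its 4 endothelial markers summed to 10794 against 2364 to 3436, and its 5 leukocyte markers to 14026 against 2446 to 5559, with 5, 4 and 4 of the markers at their highest there. Its 5 epithelial markers summed to 48492, against 30715 to 45943 in the other 4, with 1 of the 5, Krt8, at its highest there. The summed level of 3 basal markers was 6520 to 55453 in the not/low-amplified tumours, mostly from Krt14, and 69.3 to 3585 in the high-amplified ones. In MS1166.1, however, Krt5 (11.9) and Trp63 (13.1) were below all 5 high-amplified tumours. The epithelial markers summed to 73976 to 126241 in MS1210.1, MS1349.1 and MS1166.1, against 455 in the sarcoma. The part of these differences in the results below was not tested, and in bulk tissue a change in the number of cells of a type and a change in RNA per cell cannot be told apart.

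Before the high-amplified tumours are described, the levels in the 3 not/low-amplified tumours give the starting point. Per kb of exon, Mien1 was the highest with 909 ± 480 (SD, n = 3) normalized counts per kb, followed by Ormdl3 with 452 ± 260, and Stac2 was the lowest with 50.9 ± 18.2. The other 7 lay between 94.6 (Ppp1r1b) and 242 (Med1 and Stard3). The ranges of every pair of neighbours in this order overlapped, so the order of adjacent genes is not resolved with 3 tumours.

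**Figure D1:**
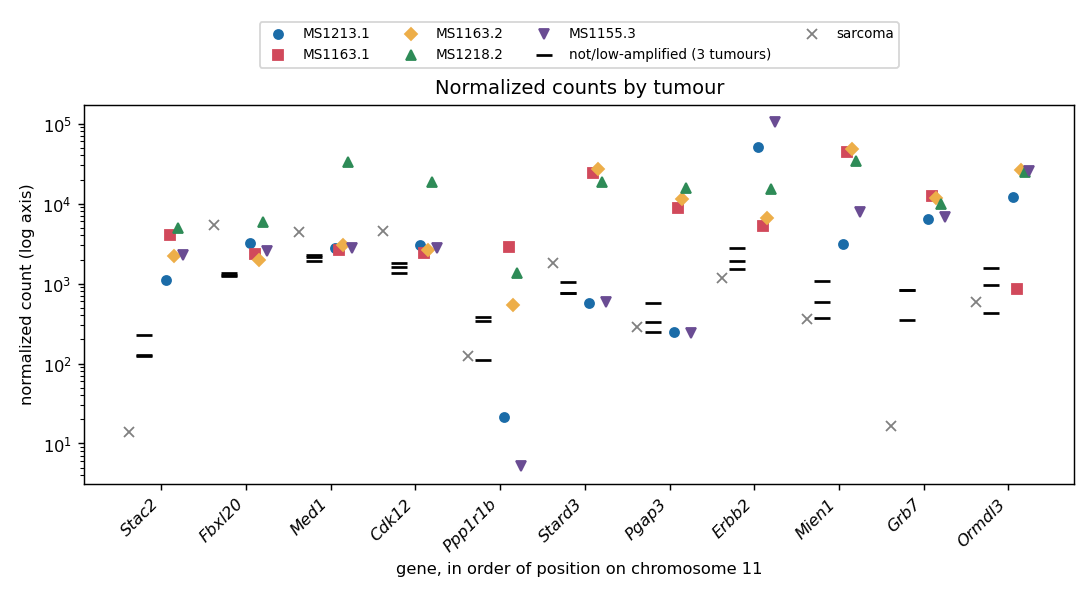
Normalized counts (log axis) of the 10 neighbours and Erbb2, in order of position; coloured points are the 5 high-amplified tumours, black bars the 3 not/low-amplified tumours and crosses the sarcoma. Mien1, Grb7 and Stac2 lie above the black bars in all 5 tumours, whereas Stard3, Pgap3 and Ppp1r1b lie above them in 3 of 5.

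Erbb2 itself had 51764, 5284, 6689, 15261 and 105019 normalized counts in MS1213.1, MS1163.1, MS1163.2, MS1218.2 and MS1155.3, and 1532 to 2783 in the not/low-amplified tumours. Every high-amplified tumour was above every not/low-amplified one, and the 5 spanned a 19.9-fold range. Alignment was to the mouse gene while the activated allele has rat sequence, so how far the counts cover both alleles is not known. MS1155.3 and MS1213.1 had by far the most Erbb2 reads.

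Mien1 and Grb7, the pair directly downstream of Erbb2, were high in all 5 tumours. Grb7, an adaptor protein that binds activated receptor tyrosine kinases through its SH2 domain, had 6476, 12343, 11599.9, 9759 and 6797 normalized counts in the 5 high-amplified tumours (in the order above) and 831, 353 and 842 in MS1210.1, MS1349.1 and MS1166.1. The 5 values were alike, within a 1.91-fold range, and the lowest exceeded the top of the not/low-amplified range 7.69-fold. This was the narrowest range within the high-amplified group of the 10 neighbours.

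Mien1, a small membrane-associated protein that promotes cell migration, had 3136, 44357, 47600, 34518 and 7945 normalized counts against 1073, 373 and 590. MS1163.1, MS1163.2 and MS1218.2 stood well above MS1213.1 and MS1155.3, with 58.4- to 80.5-fold ratios to the not/low-amplified median against 5.31- and 13.4-fold. Per kb of exon Mien1 ranked 1 of all genes in MS1163.1 and in MS1163.2 and ranked 4 in MS1218.2. In the 2 tumours with the most Erbb2 reads, Mien1 was thus at its lowest among the 5. Since the libraries were made with a strand-specific kit but the reads were aligned as unstranded and the strand option of the counting is not stated, reads in the overlap with Erbb2 may have been lost or given to either gene.

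Upstream of Erbb2, Pgap3 and Stard3 were high in the same 3 tumours and not in the other 2. Pgap3, which remodels the fatty acids of GPI anchors in the Golgi, had 8768, 11579 and 15888 normalized counts in MS1163.1, MS1163.2 and MS1218.2, but 248 and 243 in MS1213.1 and MS1155.3. The not/low-amplified tumours had 247, 327 and 567. The low pair lay at the bottom of the not/low-amplified range, and MS1155.3 was 65.3-fold below MS1218.2.

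Stard3, a cholesterol-binding protein of late endosomes, had 24420.2, 26988 and 18529.8 normalized counts in the same 3 tumours and 577 and 594 in MS1213.1 and MS1155.3, against 773, 773 and 1038 in the not/low-amplified tumours. For both genes the groups overlapped, and for Stard3 the low pair was below all 3 not/low-amplified tumours. The ratios to the not/low-amplified median in the 3 high tumours were 23.9- to 34.9-fold for Stard3 and 26.7- to 48.4-fold for Pgap3. The 2 tumours without high Stard3 and Pgap3 were those with the most Erbb2 reads.

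Ppp1r1b, which inhibits protein phosphatase 1 when phosphorylated and is the next gene upstream of Stard3, varied most. It had 21.2, 2831, 536, 1369 and 5.15 normalized counts in MS1213.1, MS1163.1, MS1163.2, MS1218.2 and MS1155.3, against 111, 341 and 378. MS1163.1, with an 8.28-fold ratio, and MS1218.2, with a 4.004-fold ratio, were raised, MS1163.2 was 1.57-fold above the median, and MS1213.1 and MS1155.3 lay below every not/low-amplified tumour.

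Further upstream, Cdk12 and Med1 were raised in MS1218.2 alone. Med1, a Mediator subunit that contacts nuclear receptors, had 2786, 2607.5, 3073, 33506 and 2768 normalized counts against 2151, 2285 and 1926. Cdk12, a kinase that phosphorylates RNA polymerase II together with cyclin K, had 3011, 2427, 2667, 18647 and 2773 against 1811, 1617 and 1375. In MS1218.2 the ratios were 15.6- and 11.5-fold, and in the other 4 they were 1.21- to 1.43-fold for Med1 and 1.501- to 1.86-fold for Cdk12. Small as the latter were, all 5 tumours lay above all 3 not/low-amplified ones for both genes. The sarcoma had 4477 Med1 and 4581 Cdk12 normalized counts. The part of cell content in the MS1218.2 values was not tested.

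Fbxl20, the F-box subunit of a ubiquitin ligase, had 3223, 2349, 1981, 5869.9 and 2588 normalized counts against 1245, 1294 and 1361. The groups did not overlap, but only MS1218.2 (4.53-fold) and MS1213.1 (2.49-fold) reached the 2-fold threshold used here. MS1155.3 missed it by the least of any neighbour in these tumours, at a log2 ratio of 0.999. MS1213.1 was, at a log2 ratio of 1.32, the one just inside it among the high-amplified tumours.

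Stac2, an SH3 and cysteine-rich domain protein that binds voltage-gated calcium channels, lies farthest from Erbb2 yet was raised in all 5 tumours. It had 1103, 4064, 2199.7, 5023 and 2275 normalized counts against 125, 226 and 128. The lowest high-amplified tumour was 4.88-fold above the highest not/low-amplified one. In MS1213.1, MS1163.1, MS1163.2 and MS1155.3 Stac2 was 8.52- to 31.4-fold above the median while Med1 and Cdk12, which lie between it and Erbb2, were under 2-fold.

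Ormdl3, an endoplasmic reticulum protein that restrains serine palmitoyltransferase, was high in 4 of 5 tumours. It had 12255, 26152.5, 24577 and 25421 normalized counts in MS1213.1, MS1163.2, MS1218.2 and MS1155.3, and 866 in MS1163.1, against 966, 1564 and 431. The 4 were 12.7- to 27.0-fold above the not/low-amplified median. MS1163.1 lay inside the not/low-amplified range.

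**Figure D2:**
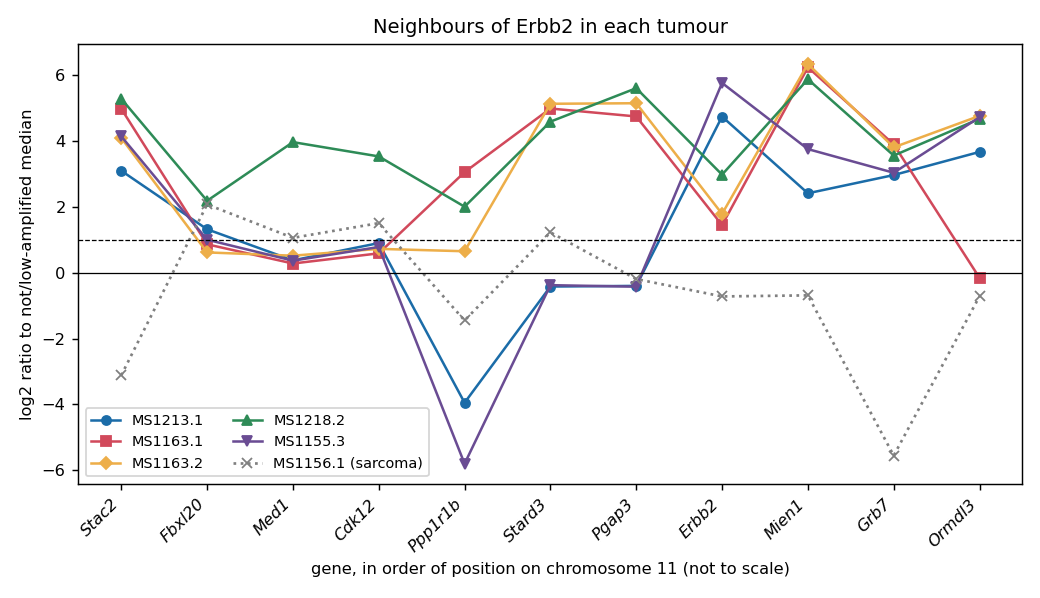
Log2 ratio of each high-amplified tumour (coloured lines) and of the sarcoma (dotted) to the median of the 3 not/low-amplified tumours, with genes in order of position and not to scale; the dashed line marks 2-fold. MS1218.2 is above the dashed line at all 10 neighbours, MS1213.1 and MS1155.3 dip below zero from Ppp1r1b to Pgap3, and MS1163.1 falls to -0.16 at Ormdl3.

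Counted per tumour, MS1218.2 had all 10 neighbours raised at least 2-fold, where 19.7% of the 14007 genes were raised. MS1163.1 and MS1163.2 had 6 each (14.9% and 16.6% of all genes), MS1213.1 had 5 (17.0%) and MS1155.3 had 4 (16.0%). The neighbours were chosen on these ratios, so nothing is read from the counts. Stac2, Mien1 and Grb7 made up the set raised in all 5 tumours, Ormdl3 was raised in 4, Stard3 and Pgap3 in 3, Ppp1r1b and Fbxl20 in 2, and Med1 and Cdk12 in 1. For 6 of the 10 (Stac2, Fbxl20, Med1, Cdk12, Mien1 and Grb7) every high-amplified tumour exceeded every not/low-amplified one, as for 7.55% of all genes, and again for 6 without MS1218.2, then as for 16.5% of all genes.

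The neighbours also took a visible part of each library. They received 0.213%, 0.670%, 0.865%, 0.988% and 0.313% of all counted reads in MS1213.1, MS1163.1, MS1163.2, MS1218.2 and MS1155.3, while the not/low-amplified tumours gave them 0.0476% to 0.0560% and the sarcoma 0.0971%. The 95% Wilson intervals of the high-amplified tumours ran from 0.211% to 0.215% in the lowest and from 0.984% to 0.993% in the highest, and cover counting error only. No high-amplified tumour overlapped the other group, but the genes were chosen for their levels in these tumours, so nothing is read from this.

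The stretch of raised genes was then followed outward from Erbb2 through every listed gene within 1 Mb that had a mean of at least 10 normalized counts (54 of 64 genes), stopping at the first gene under 2-fold. The ends differed from tumour to tumour. In MS1163.1 the stretch ran over 7 genes and 107 kb from Ppp1r1b to Grb7, bounded by Cdk12 (log2 ratio 0.59) and Ikzf3 (-0.85). In MS1218.2 it ran over 11 genes and 419 kb from Stac2 to Grb7, bounded by Rpl19 (-0.52) and Ikzf3 (0.69). In both of these tumours a raised neighbour lay outside the unbroken stretch, Stac2 in MS1163.1 and Ormdl3 in MS1218.2.

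In MS1163.2 the stretch held 11 genes over 299.6 kb from Stard3 to Gsdma2, bounded by Ppp1r1b (0.65) and Gsdma (-1.74). MS1213.1 and MS1155.3 had no raised gene directly upstream of Erbb2, where Pgap3 stood at log2 ratios of -0.40 and -0.43. MS1213.1 ran downstream from Erbb2 over 7 genes and 226 kb to Gsdma3, a gene with 3 counts there, and Gsdma2 followed at 0.78. MS1155.3 ran only over Erbb2, Mien1 and Grb7 (42.9 kb) to Ikzf3 (0.74), and over 6 genes to Ormdl3 when MS1210.1 or MS1349.1 was left out of the median.

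**Figure D3:**
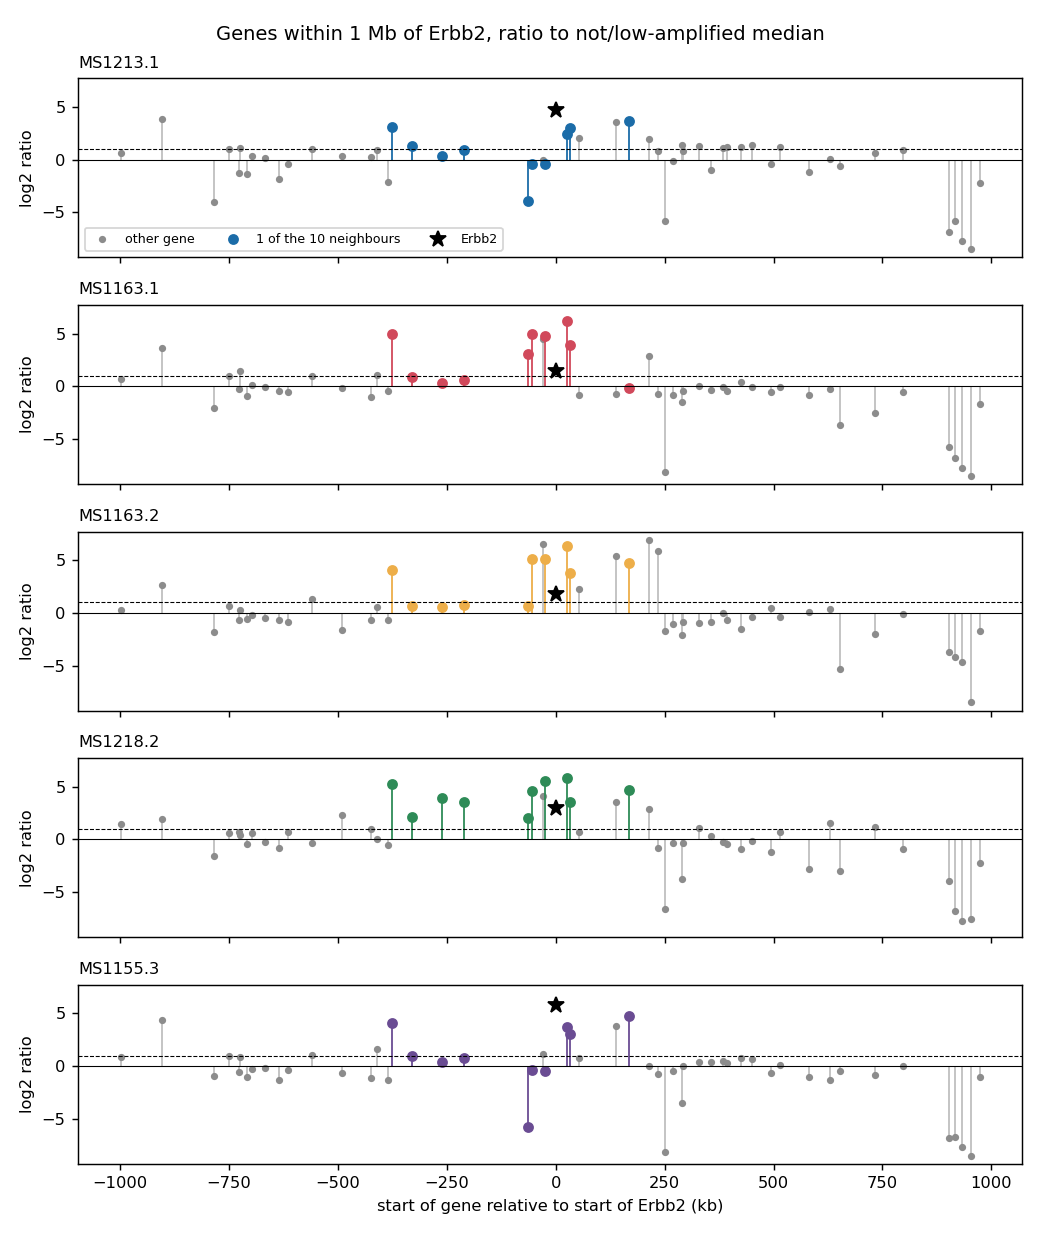
Log2 ratio to the not/low-amplified median of the 54 genes within 1 Mb of Erbb2, by distance of the gene start from the start of Erbb2 in kb, with 1 panel for each high-amplified tumour; coloured points are the neighbours, grey points other genes and the star Erbb2. MS1213.1 and MS1155.3 have no coloured point above the dashed line just upstream of Erbb2, and in MS1163.2 the grey points of Tcap (6.52) and Gsdma3 (6.94), both genes of low counts, exceed every coloured one.

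The other genes among the neighbours are known mainly from other tissues, and their counts were low. They are Neurod2 (a neuronal transcription factor), Tcap (a sarcomere protein), Pnmt (the last enzyme of adrenaline synthesis), Ikzf3 (a lymphocyte transcription factor) and Zpbp2 (a sperm acrosome protein). In MS1163.2 Neurod2 had 52 counts (95% Poisson interval 38.8 to 68.2), against 0 or 1 in each of the other 8 tumours. Gsdma3, the gasdermin gene just past Ormdl3, had 98 counts (79.6 to 119) in MS1163.2 and at most 7 in any other tumour. Both genes thus stood out in MS1163.2 alone.

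Zpbp2 had 20, 0, 56, 20 and 18 counts in MS1213.1, MS1163.1, MS1163.2, MS1218.2 and MS1155.3 and 1, 13 and 0 in the not/low-amplified tumours. Like Ormdl3, which lies beyond it, it was lowest of the 5 in MS1163.1. Ikzf3 had 91, 10, 79, 35 and 26 counts against 28, 37 and 2, so the groups overlapped. Tcap had 73 counts in MS1163.2, 21 in MS1163.1, 18 in MS1218.2 and 0 or 1 in the other high-amplified tumours, against 0, 0 and 7, and so was highest in the same 3 tumours as Stard3 and Pgap3 on either side. Skeletal muscle transcripts were also present in MS1163.2, with 1662 normalized counts of Myh4 and 360 of Ckm, and in the sarcoma, with 4506, 4659 and a Tcap level of 361, and their part in the Tcap counts was not tested.

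The tumours that share a mouse number, MS1163.1 and MS1163.2, were close to each other at most neighbours. The ratio of MS1163.2 to MS1163.1 lay between 0.54 (Stac2) and 1.32 (Pgap3) for 8 of the 10. Ormdl3 was 30.2-fold higher in MS1163.2 (95% counting interval 28.2 to 32.4), and Ppp1r1b was 5.29-fold higher in MS1163.1. The pair thus differed most at the neighbours on either side of the run from Stard3 to Grb7.

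Over the groups as wholes, the fitted log2 fold changes of high-amplified against not/low-amplified tumours (edgeR) were largest for Mien1, at 5.35 (SE 1.05). Pgap3, Stac2, Ormdl3, Stard3 and Grb7 lay between 3.82 and 4.29. Their errors were unlike, 0.45 for Grb7 and 0.58 for Stac2 against 1.43 for Pgap3, 1.34 for Stard3 and 1.03 for Ormdl3. Med1, Cdk12, Ppp1r1b and Fbxl20 had 2.10 (SE 0.996), 1.90 (SE 0.77), 1.80 (SE 1.49) and 1.32 (SE 0.38).

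All 10 fold changes exceeded 2-fold, with a median log2 of 3.94 against 0.02 over all genes tested. At adjusted p under 0.05 and over 2-fold, edgeR called Grb7 and Stac2, 2 of 10, where 0.435% of all genes were called higher. DESeq2 called 7, where 4.91% of 18358 genes, taken without the filter on counts, were called higher (8.67% in either direction). It gave no p-value for Med1 and Cdk12. Because the choice of genes rested on this contrast, nothing is read from these counts. Every not/low-amplified animal was parous, so parity and amplification are partly confounded. With parity as a covariate edgeR called 0 neighbours and 0 genes in all. Histotype is partly confounded with amplification too, since adenosquamous carcinomas (MS1210.1 and MS1349.1) occurred only in the not/low-amplified group. The part of histotype in the fold changes and ratios was not tested.

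Whether the neighbours differed with reproductive history was asked within the high-amplified group, 3 tumours from virgin against 2 from parous animals. The choice of genes had not used this contrast, although it had used levels in these same tumours. None of the 10 passed the test, nor did any of the 13949 genes tested with edgeR (0.00% called, with 884, or 6.34%, at an unadjusted p under 0.05), while DESeq2 called 58 genes (0.324%) and no neighbour. Grb7 had the narrowest interval of the neighbours downstream of Erbb2, a log2 fold change of 0.26 (95% interval -0.92 to 1.45), an interval that held a 2-fold rise in virgin tumours and stopped just short of a 2-fold fall. Stard3 (0.80, interval -2.78 to 4.39), Pgap3 (-0.29, -3.94 to 3.36), Ormdl3 (-0.97, -3.41 to 1.48) and Mien1 (0.53, -2.04 to 3.10) had intervals too wide to place them.

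Med1 had a log2 fold change of -2.73 (SE 0.88, edgeR adjusted p = 0.735) and Cdk12 one of -2.03 (SE 0.72, edgeR adjusted p = 0.735), neither of which passed. Without MS1218.2 the Med1 value was 0.02. For Stac2, Fbxl20 and Ppp1r1b the log2 fold changes were -0.60 (SE 0.61), -0.78 (SE 0.48) and 0.67 (SE 1.87). An exact test of 3 tumours against 2 cannot go below p = 0.1, and the virgin group includes both tumours numbered as 1 mouse.

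**Figure D4:**
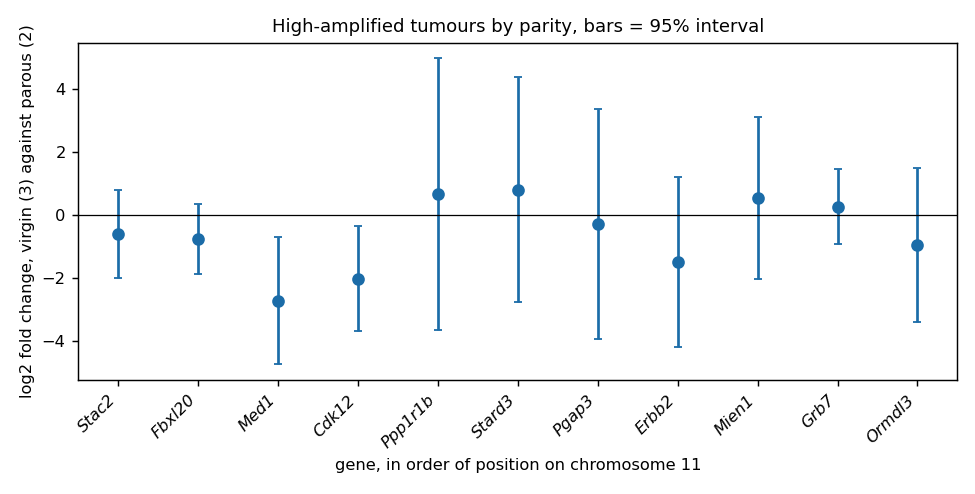
Log2 fold change of virgin (3 tumours) against parous (2 tumours) high-amplified tumours from edgeR, with 95% intervals, for the neighbours and Erbb2 in order of position. Intervals include 0 for all genes shown but Med1 and Cdk12, whose unadjusted intervals end at -0.70 and -0.36 and which did not pass after adjustment over all genes.

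The proteins that work with the neighbours, or are their paralogues, are encoded elsewhere in the genome and give a comparison that the choice of genes had not used. Of 55 such genes, 52 were tested, of which 21 were higher and 31 lower in the high-amplified tumours, and 0 were called by edgeR (0.921% of all genes were called in either direction, and 13 of the 52 had an unadjusted p under 0.05, as had 22.8% of all genes). The median log2 fold change was -0.22, against 0.02 over all genes. The median of the neighbours is not set beside it, because they were chosen on this contrast. Among the 28 other Mediator subunits and their kinase module, 10 were higher and 18 lower, with a median of -0.23. The 6 tested genes of the ORM family and serine palmitoyltransferase all had values below 0, from -0.56 to -0.25, and none passed.

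Cyclin K (Ccnk) had 454 ± 43.2 (SD, n = 5) normalized counts against 418 ± 22.2 (n = 3), a log2 fold change of 0.14 (SE 0.22), and Cdk13 had 0.23 (SE 0.21). Grb10 and Grb14 had 0.80 (SE 0.59) and 0.54 (SE 0.38), and neither passed. The largest values in each direction were those of Stac3 (2.20, SE 0.80), Fbxl2 (1.198, SE 0.50) and Med20 (1.03, SE 0.38), and of Stac (-1.80, SE 1.07), Med18 (-1.44, SE 0.38) and Ppp1r2 (-1.10, SE 0.25), with edgeR adjusted p-values of 0.148, 0.193, 0.151, 0.341, 0.0826 and 0.0675.

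Without MS1218.2, edgeR called 5 of the list, Stac3, Med20, Med8, Med18 and Ppp1r2, where 9.08% of all genes were called, and with all tumours DESeq2 called 4, Stac3, Med18, Ppp1r2 and Skp1a, where 8.67% were. Both counts are near those shares, of which the DESeq2 one is over genes taken without the filter on counts. Stac3 was at 44.3 ± 25.5 (SD, n = 5) against 9.72 ± 2.47 (n = 3) normalized counts.

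**Figure D5:**
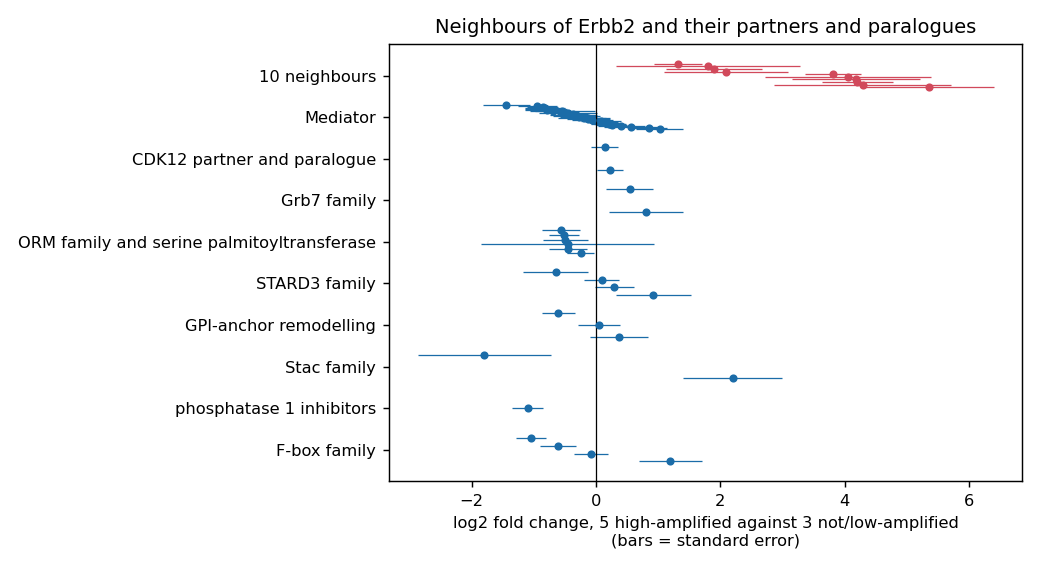
Log2 fold change of 5 high-amplified against 3 not/low-amplified tumours from edgeR, with standard errors, for the 10 neighbours (red) and for genes of partners and paralogues elsewhere in the genome (blue), grouped by family. The partners lie on both sides of 0. All 10 neighbours lie above 1, but they were chosen on this contrast, so nothing is read from their distance to the partners.

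The sarcoma had a pattern of its own at the neighbours. Fbxl20, Cdk12, Stard3 and Med1 were raised 4.20-, 2.83-, 2.33- and 2.08-fold over the not/low-amplified median, 4 of 10 where 24.1% of all genes were raised. Grb7, Stac2 and Ppp1r1b had 16.7, 14.0 and 124 normalized counts, log2 ratios of -5.55, -3.11 and -1.45, and Erbb2 had 1177. Epcam, Krt8 and Krt18, which mark epithelium, were at 53.0, 176 and 134 in the same tumour.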

How the data were processed

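Total RNA was depleted of ribosomal RNA, and strand-specific libraries were sequenced in pairs of 76 cycles. Per the study's methods, reads were aligned to mouse build 38 with STAR as unstranded (at most 3 mismatches, unique positions) and counted per gene with HTSeq. The authors deposited raw read counts for all 9 tumours and, for the 8 epithelial ones, a signal equal to the count divided by a DESeq2 size factor. These scaled values were used as normalized counts, and the sarcoma was scaled here by the median of its ratios to the other tumours. Ratios took a pseudocount of 1 and a threshold of 2-fold. Counts were tested with edgeR 4.0.16 quasi-likelihood (R 4.3.3, TMM, Benjamini-Hochberg), with DESeq2 1.42.0, other filters and scalings, a parity covariate, a summed pair and left-out tumours as alternatives. Tested on simulated data, the fit of 5 against 3 tumours called 40 of 100 genes changed by a log2 of 2 and 79 of 100 changed by 3 (14007 genes), and that of 3 against 2 called 21 and 65 (13949 genes). Genes were placed with GENCODE M21 annotation (GRCm38). Intervals of fold changes use the t distribution of the fit.

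All 10 neighbours, Erbb2, genes between them, genes just past a stretch and, of the partners, the 3 most changed in each direction are named; members, lists and tests were chosen with earlier results of these data known. Each replicate is 1 library of 1 tumour. Acta1 was not used here.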

Additional observations from a re-analysis of the deposited data

Results flagged for a closer look

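The genes looked at were the neighbours, Erbb2 and the genes between them with enough counts, 14 in all. Of these, 3 had a high-amplified tumour far from the other 4, by the gap to the nearest value over the range. The cut-off gives about 1 such group in 20 by chance only for normally distributed values, which was not checked here. The neighbours were also chosen on these levels, so nothing is read from the number flagged. Med1 had 33506 normalized counts in MS1218.2, where the next tumour had 3073. Cdk12 had 18647 in the same tumour, and the next had 3011. Tcap had 90.7 in MS1163.2, and the next had 22.0. Med1 and Cdk12 are adjacent genes, in the tumour whose mesenchymal, endothelial and leukocyte markers stood apart, and Tcap was highest where skeletal muscle transcripts were also found; the part of either in these values was not tested.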

How the results depend on the processing

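The number of neighbours raised per tumour stayed within 1.5 times its value under every pseudocount, scaling, reference and threshold tried. The counts do depend on the threshold. Between 1.5- and 2-fold lay Cdk12 in every high-amplified tumour but MS1218.2, Fbxl20 in MS1163.1, MS1163.2 and MS1155.3, and Ppp1r1b in MS1163.2. Of 400 recomputed log2 ratios 396 moved by less than the spread, 4 moved more and 0 changed sign. For high-amplified against not/low-amplified tumours, edgeR called 2 neighbours of 129 genes, DESeq2 called 7 of 1591, and edgeR with parity as a covariate called 0 of 0. With a tumour left out, 0 to 3 neighbours and 1 to 1255 genes were called. No neighbour was called without MS1210.1, 1 without MS1163.2, MS1155.3 or MS1349.1, and 3 without MS1213.1 (37 genes in all) or MS1218.2 (1255 genes). With MS1163.1 and MS1163.2 summed, 3 neighbours of 31 genes were called. Of the partners, 4 were called by DESeq2 and 0 to 5 with a tumour left out, the 5 without MS1218.2. The stretch in MS1163.1 held 0 genes at a 3-fold threshold, because Erbb2 was itself under 3-fold. That in MS1155.3 held 6 at 1.5-fold, 8 with 1 gene under the threshold allowed, and 3 to 6 with a not/low-amplified tumour left out. With 1 gene under the threshold allowed, that in MS1218.2 held 15 genes over 602 kb from Stac2 to Gsdma3, with all 10 neighbours. Those in MS1213.1, MS1163.1 and MS1163.2 stayed the same under that setting.

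Between virgin and parous tumours 0 neighbours were called under each alternative, where DESeq2 called 58 genes. Log2 fold changes changed sign only where a tumour was left out, over ranges of -1.19 to 0.11 (Stac2), -3.52 to 0.020 (Med1), -1.37 to 7.74 (Ppp1r1b), -0.043 to 4.86 (Stard3), -1.16 to 4.81 (Pgap3), -3.35 to 0.53 (Erbb2) and -0.069 to 1.99 (Mien1). Stac2, Med1 and Pgap3 did so without MS1218.2, which leaves 1 parous tumour assumed to vary like the others, Stard3, Ppp1r1b (-0.21), Erbb2 and Mien1 without MS1155.3, Pgap3 (0.27) without MS1213.1 and Ppp1r1b without MS1163.1. The cause of these changes was not tested. No paired analysis was possible because the labels give the groups no shared replicate numbers. Differences of genes with under about 10 counts, such as Gsdma3 in MS1213.1, are limited by counting.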

Other observations

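Beyond the neighbours, the 40 other genes with enough counts within 1 Mb were raised in unequal numbers. In MS1213.1 they were 12 of 40 (30.0%, with 17.0% of all genes). In MS1218.2 they were 7 (17.5%, with 19.7%) and in MS1155.3 they were 3 (7.5%, with 16.0%). In the MS1163.1 and MS1163.2 pair they were 5 (12.5%, with 14.9%) and 4 (10%, with 16.6%). Only in MS1213.1 did the raised genes exceed the share of all genes. In MS1213.1 those past Ormdl3 included Thra, Msl1, Casc3, Rapgefl1, Wipf2 and Rara, at log2 ratios of 1.27, 1.06, 1.21, 1.23, 1.41 and 1.17. These genes were chosen after their values were seen. Rapgefl1 was higher still in the not/low-amplified MS1210.1, and Thra was also raised in MS1218.2 and the sarcoma. Raised genes of MS1213.1 lay upstream of Stac2 too, namely Srcin1, Mllt6, Pcgf2 and Fbxo47. Of these, Srcin1 was raised in every high-amplified tumour and in the not/low-amplified MS1349.1. Thra and Rara encode nuclear receptors for thyroid hormone and retinoic acid.

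The genes whose levels over the 8 epithelial tumours were most like the mean of the neighbours were Maged2, Ptger1, Soga1, Ptgis and Snx1, with Pearson correlations of 0.962, 0.962, 0.961, 0.955 and 0.952. None lies on chromosome 11, and all 8 points share the amplification groups. Among the neighbours the same measure, in which each gene enters its own mean, ran from 0.50 for Ppp1r1b to 0.94 for Mien1, and Erbb2 had 0.29.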
